A study of Homo sapiens with 6 samples.

Results

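The cytosolic ribosomal protein genes were examined in MCF10A cells grown with and without growth factors. The set held the protein-coding genes whose symbol is RPL, RPS or RPLP with a number (the suffix letters A, L, X and Y included), plus RPSA and FAU, without the RPS6K kinases and without pseudogenes. Of 83 such genes in the annotation, 81 were among the 19198 genes of the table, 48 of the large subunit and 33 of the small subunit, and RPL3L and RPL10L were not analysed here. The choice used symbols only and no measured value, and all 81 genes passed the filter on low values used for testing (a mean of at least 10 normalized counts, passed by 16988 genes).

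MCF10A is a non-tumorigenic human mammary epithelial line that is one established line, so the samples are cultures and not donors. RNA was sequenced from 3 control samples kept in medium with 5% horse serum, 10 µg/ml insulin, 20 ng/ml EGF, 100 ng/ml cholera toxin and 0.5 µg/ml hydrocortisone, and from 3 growth factor depleted samples kept in the same medium and serum with those 4 additives left out. The depletion thus removed a hormone, a growth factor, a toxin and a steroid together, and their separate parts cannot be told apart. Nothing in the labels says that replicates came from separate cultures, so the p-values below measure only the spread between these samples, which may be technical.

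Each ribosome is built from a large and a small subunit, and each subunit holds many proteins present in 1 copy, so the genes for these proteins are usually transcribed at similar, very high rates. Their mRNAs start with a C followed by a run of pyrimidines, the 5′ terminal oligopyrimidine (TOP) tract, through which mTOR and LARP1 couple their translation and stability to growth factors and nutrients. Transcription of the genes also follows growth signals, with MYC among the factors known to raise it. They are short, and their mRNAs have been copied into the genome many times as processed pseudogenes, which makes reads from them difficult to place.

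The start of a transcript is the feature by which these mRNAs are recognised, so the region around the start site is shown for genes at both ends of the response described below. The sequences are from RefSeq (GRCh38.p14), 10 bases before and 20 bases from the start site, read 5′ to 3′ on the gene's strand, with the unbroken run of pyrimidines from the start site in capitals. The first 6 belong to genes with low values in the depleted samples or with high levels, and the last 5 to genes whose values hardly differed between the conditions or were higher without growth factors.
RPL13A, chr19:49487598-49487627, plus strand: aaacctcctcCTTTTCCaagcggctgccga
RPS21, chr20:62387093-62387122, plus strand: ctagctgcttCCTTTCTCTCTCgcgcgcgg
RPS18, chr6:33272065-33272094, plus strand: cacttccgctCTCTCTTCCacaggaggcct
RPS24, chr10:78033853-78033882, plus strand: aatcgtggttCTCTTTTCCTCCTTggctgt
RPL18, chr19:48619159-48619188, minus strand: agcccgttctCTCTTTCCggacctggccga
RPS6, chr9:19380217-19380246, minus strand: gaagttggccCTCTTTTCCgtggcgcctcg
RPLP1, chr15:69452808-69452837, plus strand: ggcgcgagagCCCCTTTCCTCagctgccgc
RPL39, chrX:119791611-119791640, minus strand: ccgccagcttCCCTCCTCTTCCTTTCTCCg
RPL36AL, chr14:49620607-49620636, minus strand: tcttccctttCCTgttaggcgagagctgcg
RPS29, chr14:49598691-49598720, minus strand: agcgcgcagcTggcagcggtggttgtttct
RPS27L, chr15:63157458-63157487, minus strand: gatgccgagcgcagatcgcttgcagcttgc

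Promoter entries were found for 65 of the 81 genes, and 1 entry was used for each. The promoters they are set against were not limited to 1 entry per gene or to coding genes. A C at the annotated start site followed by at least 4 pyrimidines was present in 43 of them (66.2%), against 4.07% of the 35116 promoters in the table. When the same pattern was allowed to begin within 5 bases of the start site, the counts were 52 of 65 genes (80%) and 21.1% of all promoters. The median run of pyrimidines from the start site was 7 bases in the ribosomal protein genes and 0 in all promoters, and the longest, 19 bases, was that of RPL39. Over the 300 bases from 250 before to 50 after the start site, with both strands searched, the letters CCGGAAG, a core that ETS factors such as GABPA can bind, were present in 33.9% of the genes and 10.3% of all promoters. The letters AAGATGG of the YY1 motif were present in 13.9% against 5.84%, and the TATA box letters TATAAA in 7.69% against 11.5%. The last 3 letters of CCGGAAG are the first 3 of AAGATGG, so 1 stretch can match both, and a match describes letters only.

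The libraries held between 7472418 and 28672630 reads on genes, recovered from the size-factor-normalized counts, so that 3 reads corresponded to 1.76 to 6.71 normalized counts. The labels call the cells luminal ductal cells, but the basal keratins KRT5 and KRT15 were at 12739 to 38503 and 50863 to 114660 normalized counts in the controls, and the luminal keratins KRT8 and KRT18 at 2442 to 8635 and 1716 to 6188. Of the other basal markers, KRT14 was at 12.8 to 264 and TP63 at 271 to 1615 in the controls, so markers of both kinds were present. The summed level of 7 fibroblast or mesenchymal markers (VIM, COL1A1, COL1A2, COL3A1, PDGFRB, LUM and DCN) was 592 to 946 normalized counts in the controls and 29180 to 78150 in the depleted samples, and 6 of the 7 passed the test as higher without (adjusted p under 0.05 and at least 2-fold, limma with Benjamini-Hochberg adjustment over all genes). LUM was at 0 to 3.76 normalized counts in the controls. Leukocyte markers summed to 9.37 to 26.3 normalized counts with and 13.4 to 23.6 without growth factors, with CD3E and the globin genes not listed. The part of this marker difference in the ribosomal protein results was not tested, and in bulk RNA fewer cells of a type and less RNA per cell cannot be told apart.

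The comparison of depleted with control cells asks what removal of the growth factors does to the expression programme of these epithelial cells. The ribosomal protein genes as a set were at lower values without growth factors, but unevenly so among the controls. Of the 81 genes, 79 had a lower mean on the log2 scale without growth factors, and the median log2 fold change, without minus with, was −0.66 (interquartile range −0.76 to −0.44), beside −0.03 over all genes tested. Under TMM scaling, rescaling to the same total and quantile scaling the median was −0.68, −0.62 and −0.56, with 76 to 79 genes lower. The median of the genes' ratios of depleted to control means was 0.589. No gene of the set met an adjusted p under 0.05 with at least 2-fold change, where 6.33% of all genes tested did in either direction (limma on log2(normalized count + 1), two-sided, Benjamini-Hochberg adjustment over 16988 genes). Fold changes on this scale slightly understate those of low genes. At an unadjusted p under 0.05 there were 5 of 81 genes (RPL13A, RPS21, RPS18, RPL21 and RPS7), beside 3400 of all 16988 genes, and the lowest adjusted p was 0.0857, for RPS21.

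Other tools gave similar fold changes and few calls. edgeR's quasi-likelihood test on the recovered reads called 0 of 81 as lower (background 1.70% of genes called lower), with a median of −0.71. With edgeR 11 of 81 had an unadjusted p under 0.05, but the number over all genes at that cut-off was not counted. DESeq2 called RPL13A, RPS21 and RPL21 as lower (background 4.86%), with a median of −0.74. On simulated counts with 3 samples against 3, the limma test recovered 4% of 50 genes changed 2-fold and 46% of 50 changed 4-fold. Recovery also asked for an estimate of at least 2-fold, which by itself lowers the share for genes changed 2-fold. Counts were drawn gene by gene with no offset shared by the genes of a library, so the simulation cannot say why the set had few calls.

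**Figure D1:**
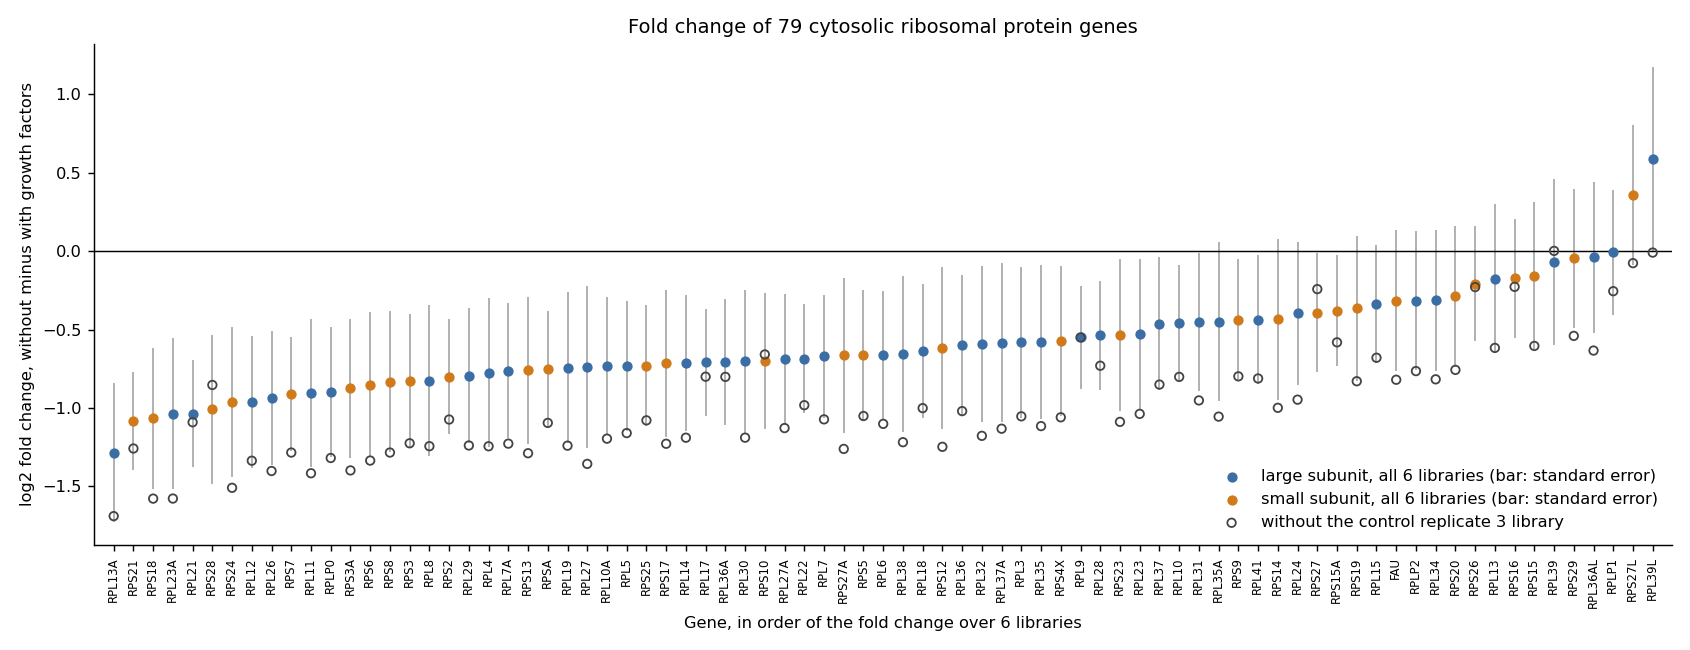
Log2 fold change (vertical axis, without minus with growth factors) of 79 of the 81 genes, placed in order along the horizontal axis, with limma's standard error as the bar, blue for the large and orange for the small subunit, and open circles for the fold change without the control replicate 3 library. 77 of the 79 filled points lie below 0, from −1.28 for RPL13A to 0.59 for RPL39L, and most open circles lie below the filled points.

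Counts on the set made up 2.59%, 3.91% and 1.43% of all normalized counts in control replicates 1, 2 and 3, and 1.92%, 1.31% and 1.75% in depleted replicates 1, 2 and 3. The share in control replicate 3 therefore lay inside the range of the depleted samples, while the other two controls lay above all of them. The means were 2.65% ± 1.24 (SD, n = 3) with and 1.66% ± 0.316 (SD, n = 3) without growth factors, a difference of −0.987 percentage points that is smaller than the SD of the controls. It was −1.59 points without control replicate 3 and −0.355 points without control replicate 2. With 3 samples against 3, an exact two-sided permutation test of one value cannot go below p = 0.1.

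The counts on both subunits followed the same order of libraries. The large subunit genes took 1.49%, 2.33% and 0.838% of counts in the controls and 1.13%, 0.751% and 0.991% in the depleted samples. The small subunit genes took 1.10%, 1.58% and 0.596% in the controls and 0.791%, 0.557% and 0.757% in the depleted samples. The ratio of large to small subunit counts was 1.41 ± 0.0610 (SD, n = 3) with and 1.36 ± 0.0601 (SD, n = 3) without growth factors, which overlap. The median log2 fold change was −0.66 in each subunit, with ranges of −1.28 (RPL13A) to 0.59 (RPL39L) for the large and −1.08 (RPS21) to 0.36 (RPS27L) for the small subunit.

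**Figure D2:**
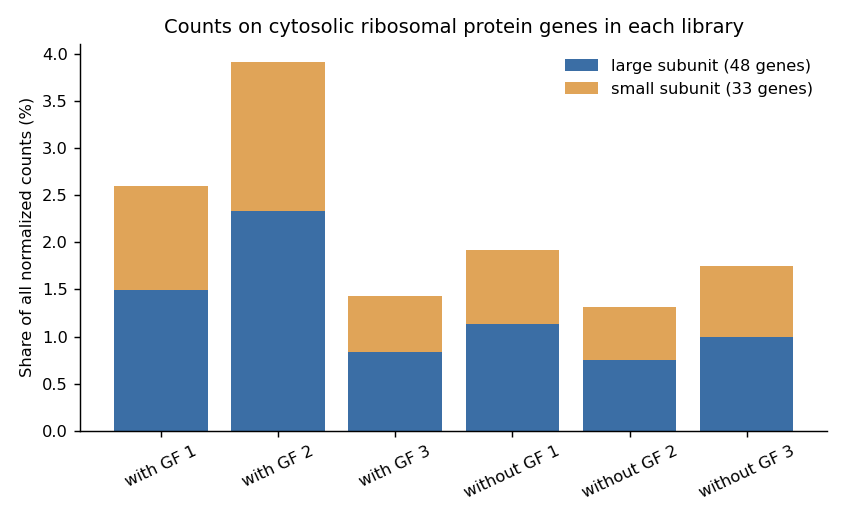
Share of all normalized counts (%, vertical axis) on large subunit (blue, 48 genes) and small subunit (orange, 33 genes) ribosomal protein genes in each of the 6 libraries, GF standing for growth factors. Control replicates 1 and 2 stand at 2.59% and 3.91%, above the 1.31% to 1.92% of the depleted libraries, and control replicate 3 stands at 1.43%.

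The spread of the controls was shared by most genes of the set. Control replicate 3 was the lowest control for 73 of the 81 genes, and it lay within the range of the depleted samples for 41, below all 3 of them for 30 and above all 3 for 10. Control replicates 1 and 2 both lay above every depleted sample for 72 genes, and control replicate 2 was the highest of the 6 libraries for 72. These orders of single libraries were not counted over all genes tested, so the counts have no background share beside them. The median ratio of control replicate 2 to control replicate 3 was 3.03, that of control replicate 1 to control replicate 3 was 2.14, and that of the depleted mean to control replicate 3 was 1.16. Among the depleted samples, replicate 2 was the lowest for 75 genes. The median SD on the log2 scale was 0.84 over the controls and 0.31 over the depleted samples, beside 0.60 and 0.35 for all genes tested.

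The result changed when control replicate 3 was left out. In that fit, 34 of the 81 genes were called lower and 0 higher, 21 of the large and 13 of the small subunit, beside 6.49% of all genes called lower. The median log2 fold change was then −1.06 and 80 of 81 genes were lower. Leaving out control replicate 2 instead moved the median to −0.30 with 69 of 81 genes lower and 0 called. Leaving out any one of the other 4 libraries gave medians between −0.71 and −0.51 and 0 called. No label marks control replicate 3 as different, so it was kept.

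Genes of the set that stood lowest without growth factors included members of both subunits. RPL13A, a large subunit protein also known for a role outside the ribosome in silencing inflammatory mRNAs, gave 11668, 13795 and 5469 normalized counts in control replicates 1 to 3 and 5666, 2792 and 3844 in the depleted samples. The groups overlapped only through control replicate 3, which lay just under depleted replicate 1, and the log2 fold change was −1.28 (SE 0.44, adjusted p = 0.141, limma). Without control replicate 3 it was −1.69 (adjusted p = 0.0230, limma). RPL13A lies at chr19:49487510-49493057 (plus strand) and hosts several snoRNAs in its introns.

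RPS21, a small subunit protein, gave 3760, 3952 and 2676 normalized counts in the controls and 1948, 1171 and 1831 in the depleted samples. Every depleted sample lay below every control, and control replicate 3 was again the lowest control. The log2 fold change was −1.08 (SE 0.31, adjusted p = 0.0857, limma), the smallest standard error of the set, and −1.26 without control replicate 3 (adjusted p = 0.0313, limma).

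RPS18, of the small subunit head, gave 3702, 4844 and 1460 normalized counts in the controls and 1636, 1098 and 1585 in the depleted samples. RPL23A, a large subunit protein near the exit tunnel, gave 2484, 3082 and 899 with and 1202, 645 and 1026 without. In both genes control replicate 3 fell inside the range of the depleted samples while the other controls were above it, and the log2 fold changes were −1.07 (SE 0.45) and −1.04 (SE 0.48). RPL21, of the large subunit, gave 193, 240 and 192 with and 93.4, 95.1 and 114 without, with no overlap and a log2 fold change of −1.04 (SE 0.34, adjusted p = 0.126, limma). RPL12, a large subunit protein at the stalk base, gave 2026, 4130 and 1329 with and 1346, 904 and 1234 without, overlapping at control replicate 3 only.

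Genes with roles beyond protein synthesis were likewise high in control replicates 1 and 2. RPS6, the small subunit protein that S6 kinases phosphorylate on growth factor signals, gave 17663, 19835 and 6862 normalized counts in the controls and 9216, 6134 and 7215 in the depleted samples. Control replicate 3 lay between depleted replicates 2 and 3, and the log2 fold change was −0.85 (SE 0.46, adjusted p = 0.363, limma). RPL11 and RPL5, which with 5S rRNA can bind MDM2 and so stabilise p53, also had control replicate 3 inside the depleted range. RPL11 gave 11576, 17882 and 4986 with and 5624, 4718 and 5903 without, and its log2 fold change was −0.91 (SE 0.47). RPL5 gave 8056, 10376 and 3757 with and 4587, 3314 and 4501 without, and its log2 fold change was −0.73 (SE 0.42). In both, control replicates 1 and 2 were above all depleted samples.

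RPS27A, which is made as a fusion of ubiquitin with a small subunit protein, gave 6521, 8102 and 2099 normalized counts in the controls and 2976, 2644 and 3542 in the depleted samples. FAU, a fusion of a ubiquitin-like protein with a small subunit protein, gave 2491, 2722 and 912 with and 1568, 1096 and 1865 without. In both, control replicate 3 was the lowest of all 6 libraries and the other controls were the highest. RPSA, a small subunit protein also described as a laminin receptor, gave 1930, 2122 and 989 with and 1142, 690 and 1076 without, and its log2 fold change was −0.75 (SE 0.37).

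The stalk proteins, which recruit the GTPase factors of translation, had unequal fold changes. RPLP0, the anchor of the stalk, gave 9021, 8006 and 3527 normalized counts in the controls and 4197, 2637 and 3569 in the depleted samples, a log2 fold change of −0.90 (SE 0.41). RPLP1 gave 1607, 3380 and 1393 with and 2010, 1454 and 2544 without, a log2 fold change of −0.01 (SE 0.40). RPLP2 gave 4485, 6979 and 2198 with and 3508, 2520 and 4034 without, a log2 fold change of −0.32 (SE 0.44). In RPLP0 and RPLP2 control replicates 1 and 2 lay above all depleted samples, and in RPLP1 control replicate 2 alone did. The difference between these genes was not tested.

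The genes with the highest fold changes were mostly close to 0. RPS16 gave 2181, 4941 and 2937 normalized counts in the controls and 3370, 2022 and 3231 in the depleted samples. RPS15 gave 1574, 3488 and 921 with and 1669, 1182 and 1854 without. RPS29, a small zinc-binding protein of the small subunit, gave 3458, 3117 and 1176 with and 2321, 1749 and 2831 without. In RPS16 and RPS15 only control replicate 2 was above all depleted samples, and in RPS29 control replicates 1 and 2 were. Their log2 fold changes were −0.17 (SE 0.38), −0.16 (SE 0.47) and −0.05 (SE 0.44).

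The genes named with L or X included 3 paralogs with a partner in the set (RPS27L, RPL36AL and RPL39L) and RPS4X. RPS27L, whose product is close to RPS27 and which is a known p53 target, gave 3562, 2531 and 1220 normalized counts in the controls and 1918, 3130 and 3844 in the depleted samples, with overlapping groups and a log2 fold change of 0.36 (SE 0.45). RPL39L, known from testis, gave 110, 166 and 38.4 with and 168, 89.8 and 161 without, a log2 fold change of 0.59 (SE 0.59). RPS27L and RPL39L were the only genes of the set with a positive fold change, neither differed beyond its spread, and both fold changes turned slightly negative without control replicate 3 (−0.08 and −0.01). RPL36AL gave 2534, 3245 and 833 with and 1854, 1726 and 1970 without, a log2 fold change of −0.04 (SE 0.48). RPS4X, on the X chromosome, gave 17446, 22840 and 7232 with and 11278, 7551 and 10314 without, a log2 fold change of −0.57 (SE 0.48).

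The partners of these paralogs were lower per kilobase of coding sequence, with 412 mean normalized counts for RPS27 against 10717 for RPS27L, 331 for RPL36A against 6374 for RPL36AL and 255 for RPL39 against 800 for RPL39L. The size of the gap turned on the length used, as the selected transcript of RPS27L has 6110 bases for 252 coding bases. Per kilobase of the selected transcript the values were 295 against 442, 138 against 2999 and 100 against 168, in the same order. RPS27 gave 103, 108 and 145 normalized counts with and 91.5, 76.1 and 100.6 without growth factors. RPL36A gave 100, 186 and 112 with and 82.4, 75.4 and 76.0 without, and RPL39 gave 25.1, 52.7 and 42.3 with and 49.4, 24.3 and 40.2 without. In RPS27 and RPL36A every depleted sample lay below every control, in RPL39 the groups overlapped, and none passed the test. Counts on listed pseudogenes of the same name made up 83.8% of the family's counts for RPS27, 94.8% for RPL36A and 97.0% for RPL39, against 0% for RPS27L, RPL36AL and RPL39L.

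**Figure D3:**
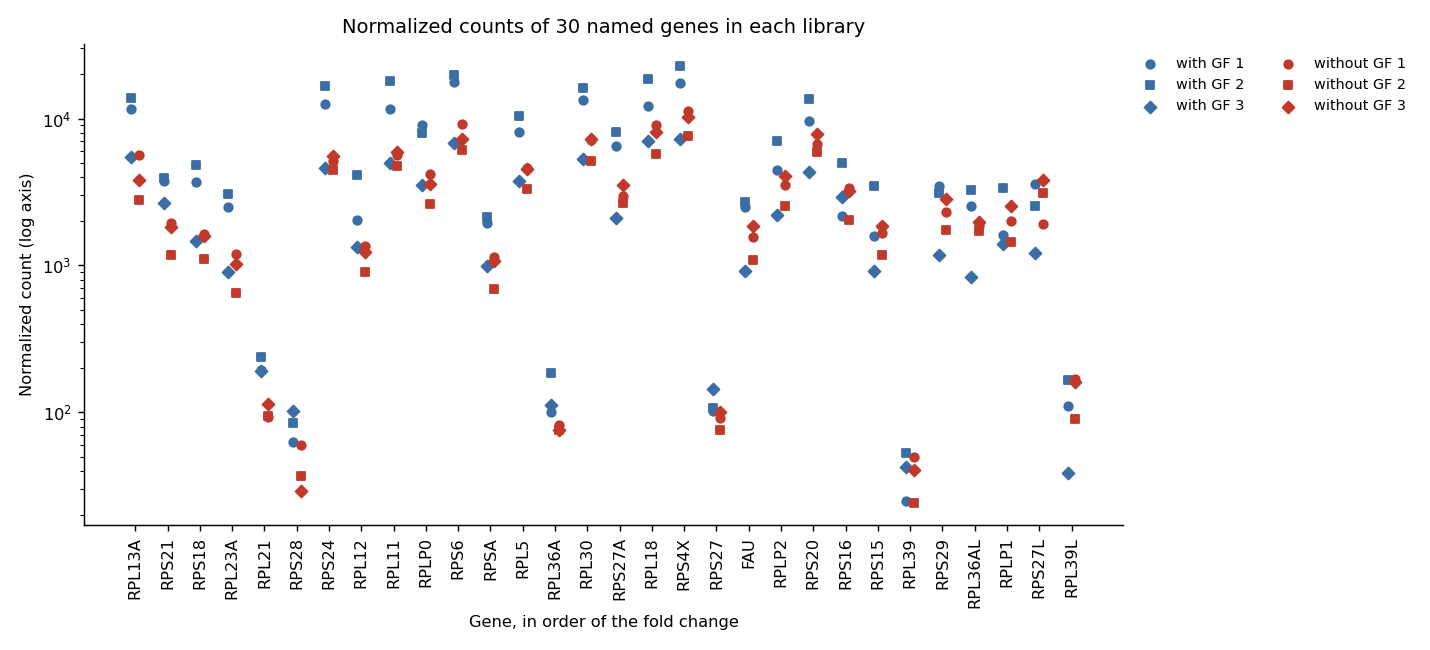
Normalized counts (log axis) of 30 genes of the set in each library, blue for the controls and red for the depleted samples, with circles, squares and diamonds for replicates 1, 2 and 3, ordered by log2 fold change. In most genes the blue circle and square stand above all red points and the blue diamond, control replicate 3, stands among or below them, as in RPS6 with 6862 against 6134 to 9216.

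Levels differed widely within the set. Per kilobase of the selected transcript, the highest genes included RPL30 with 18189, RPL18 with 15747, RPS20 with 15452 and RPS24 with 15281 mean normalized counts per kilobase over the 6 libraries. Per kilobase of coding sequence the highest was RPL37A with 35130, whose selected transcript has 2992 bases for 276 coding bases, followed by RPL30 with 26256. The order among these leading genes thus turned on which length was used. RPS24, with the longest run of pyrimidines among those shown after RPL39, gave 12529, 16558 and 4632 normalized counts in the controls and 5176, 4489 and 5574 in the depleted samples. RPL18 gave 12170, 18598 and 7034 with and 9052, 5775 and 8121 without. RPL30 gave 13358, 16130 and 5330 with and 7131, 5165 and 7236 without, and RPS20 gave 9637, 13651 and 4328 with and 6691, 5910 and 7900 without. In these 4 genes control replicates 1 and 2 exceeded every depleted sample, and control replicate 3 was under all of them in RPS20.

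At the other end, 14 of the 81 genes had a mean under 1000 normalized counts. The median share of family counts on pseudogenes was 78.3% in those 14 and 16.7% in the 67 others. RPS28, with 62.7, 84.9 and 101.3 normalized counts with and 59.5, 36.7 and 29.1 without growth factors, had 94.1% of its family's counts on 1 pseudogene. RPL7 had 92.0% and RPL17 91.6% on theirs, while RPL9, RPS26, RPL41 and RPL39L were low with under 10% on any listed pseudogene. Reads from a gene and from its near-identical copies cannot be told apart here, so the levels of the genes with most of their family's counts on pseudogenes are uncertain. RPS10 and RPL17 also shared 31.5% and 32.9% of their exon bases with a readthrough gene on the same strand.

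The genes whose groups were separate were mostly low ones. Every depleted sample lay below every control for 9 of the 81 genes, beside 12.1% of all genes tested, among them RPS21, RPL21, RPS28, RPL36A and RPS27. Of these 9, 8 had a mean under 1000 normalized counts and 6 had more of their family's counts on pseudogenes than on the gene. The share with separated groups was near that of all genes. The median log2 fold change was −0.61 in the 14 low genes and −0.66 in the 67 others.

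**Figure D4:**
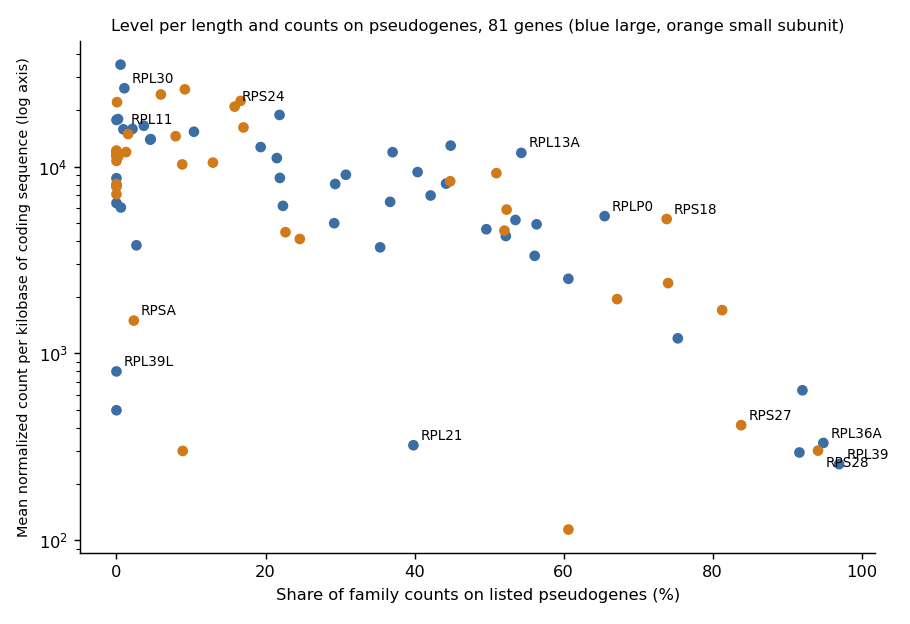
Mean normalized count per kilobase of coding sequence (log axis) against the share of a family's counts that lie on listed pseudogenes (%), 1 point for each of the 81 genes, blue for the large and orange for the small subunit. RPL39, RPL36A, RPS28 and RPS27, with 83.8% to 97.0% on pseudogenes, lie at 255 to 412 counts per kilobase, and RPL30 lies at 26256.

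The counts on listed pseudogenes followed the same order of libraries. Of 249 ribosomal protein pseudogenes, 199 were tested and 0 were called by limma (10 at an unadjusted p under 0.05, beside 3400 of all 16988 genes). The median log2 fold change was −0.54, with 170 lower and 29 higher. They took 1.07%, 1.53% and 0.531% of counts in the controls and 0.703%, 0.495% and 0.643% in the depleted samples. As a share of the counts on genes plus pseudogenes they stayed between 26.8% and 29.2% in all 6 libraries.

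Ribosomal protein transcripts are short, so the libraries were compared by transcript length. The median selected transcript of the set had 778 bases, beside 2734 for all genes tested, and the median coding length was 453 bases, beside 1419. Across 12790 protein-coding genes, the Spearman correlation of a library's deviation from each gene's mean with transcript length was −0.06, −0.32 and 0.27 in control replicates 1, 2 and 3 and −0.01, 0.24 and −0.14 in depleted replicates 1, 2 and 3. Genes are not independent replicates and share their library, so these values are descriptions. Control replicate 2 thus favoured short transcripts and control replicate 3 long ones, which is the order of the ribosomal protein genes among the controls. For the log2 fold change between the conditions the correlation with length was 0.02 and with GC content it was 0.13.

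The 645 other protein-coding genes with transcripts under 1000 bases showed part of the same order. Their median log2 deviations were 0.08, 0.52 and −0.75 in the controls and 0.05, −0.17 and 0.24 in the depleted samples, against 0.52, 0.98 and −0.54 and then −0.12, −0.62 and −0.18 for the ribosomal protein genes. Control replicate 3 was low for both kinds of gene. The other short genes had a median log2 fold change of 0.05 between the conditions, where the ribosomal protein genes had −0.66.

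A correction of each library for transcript length and GC content, estimated on genes outside the set, moved control replicate 3 most. It left the other short genes at a median deviation of −0.24 in that library, in place of −0.75. Mitochondrial ribosomal protein genes were at −0.31 there, in place of −0.64, so both lists stayed low in it. The median deviation of the set became 0.38, 0.67 and −0.08 in the controls and −0.11, −0.51 and −0.31 in the depleted samples, so that all 3 control medians lay above all 3 depleted ones, control replicate 3 only narrowly so. Control replicate 3 lay above all depleted samples for 43 genes, in place of 10, an order that was not counted over all genes. Every depleted sample lay below every control for 36 genes, beside 16.3% of all genes. The median log2 fold change was −0.63, with 75 of 81 genes lower. The only call was RPS18 (log2 fold change −1.06, adjusted p = 0.0454, limma), beside 3.13% of genes called lower. In the set 30 genes had an unadjusted p under 0.05, but the number over all genes at that cut-off was not counted in this fit.

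Because the selected transcripts of some of these genes are far longer than their coding sequence, the correction was repeated on coding length with smooth curves. The median log2 fold change was then −0.83, with 79 of 81 genes lower, 50 with every depleted sample below every control (18.5% of all genes) and 7 called lower (RPL12, RPL13A, RPL23A, RPL26, RPS7, RPS18 and RPS21, beside 4.06% of genes). The 7 were 4 large and 3 small subunit genes. With control replicate 3 left out and the transcript length and GC correction applied, 18 of 81 were called lower (background 6.10%) and the median was −0.85. The summed counts of the set after correction for transcript length and GC were 437820, 544720 and 289690 in the controls and 303070, 222980 and 268590 in the depleted samples, which overlapped only through control replicate 3 and depleted replicate 1. After the correction on coding length they were 459890, 567590 and 319160 against 288110, 209430 and 246050, which did not overlap. The coding length correction and the combination with control replicate 3 left out were added after the uncorrected values were seen, and the parts of length and of growth factors in control replicate 3 were not separated by any test.

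**Figure D5:**
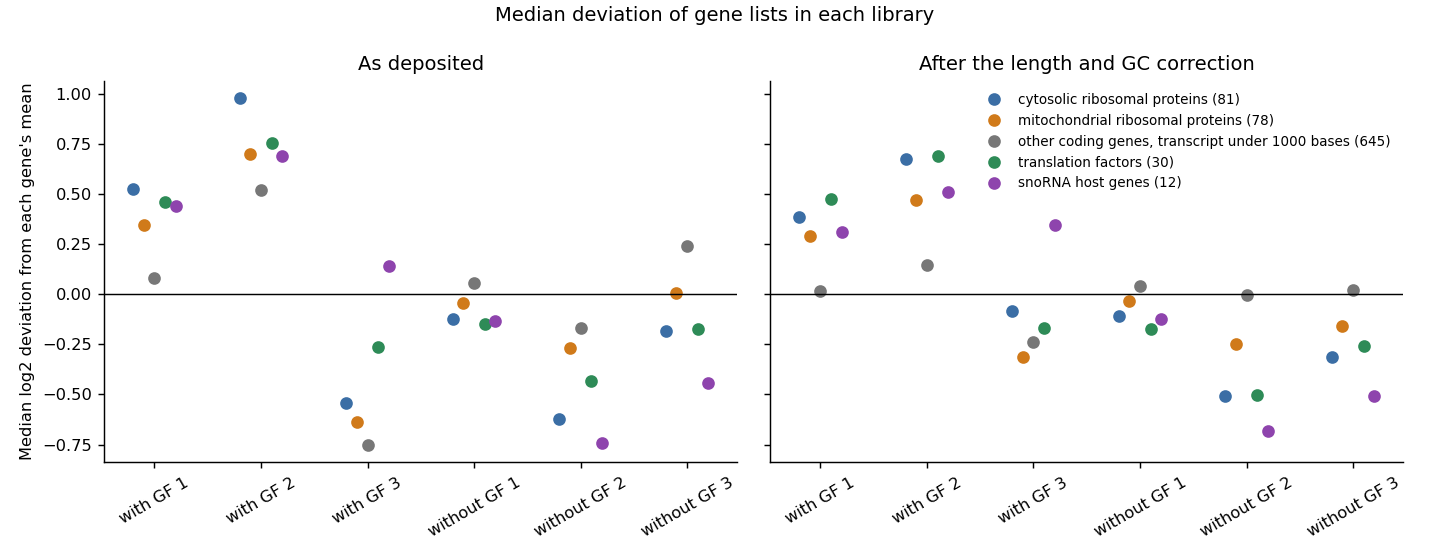
Median log2 deviation from each gene's mean over the 6 libraries (vertical axis) for 5 gene lists in each library, as deposited (left) and after the transcript length and GC correction (right), with the number of genes in brackets. The cytosolic ribosomal protein genes (blue) move from −0.54 to −0.08 in control replicate 3 while the snoRNA host genes (purple) are above 0 in all 3 controls in both panels.

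Genes that work with the ribosome were described by the same fit. Of 30 translation factors and other TOP genes tested, 28 were lower without growth factors and the median log2 fold change was −0.51. The 1 called, as lower, was EIF4A1, the helicase that unwinds mRNA leaders, beside 335 of all 16988 genes called lower. EIF4A1 gave 190, 358 and 362 normalized counts with and 96.1, 95.7 and 93.9 without growth factors, a log2 fold change of −1.60 (SE 0.38, adjusted p = 0.0445, limma). Here control replicate 3 was the highest control. EIF4A1 shares its exons on the same strand with the readthrough gene SENP3-EIF4A1, and their reads cannot be told apart. The call rested on the replicates, as leaving out control replicate 2 or any depleted replicate ended it.

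The snoRNA host genes, mostly non-coding transcripts whose introns carry the guides for rRNA modification, were lower in 11 of 12 with a median of −0.92. Of the 12, 3 were called, all as lower, beside 335 of all 16988 genes called lower. GAS5 gave 3251, 2850 and 2705 normalized counts in the controls and 1532, 996 and 1049 in the depleted samples, a log2 fold change of −1.32 (SE 0.28, adjusted p = 0.0281, limma). SNHG1 gave 1119, 1424 and 1228 with and 587, 479 and 581 without, a log2 fold change of −1.19 (SE 0.26, adjusted p = 0.0322, limma). SNHG8 gave 1298, 1588 and 900 with and 606, 325 and 494 without, a log2 fold change of −1.42 (SE 0.35, adjusted p = 0.0492, limma). In all 3 the groups were separate, and in GAS5 and SNHG1 control replicate 3 was close to the other controls. Leaving out control replicate 1 or 2 or depleted replicate 2 or 3 left 0 of them called, leaving out depleted replicate 1 left 1, and leaving out control replicate 3 gave 5.

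Ribosome biogenesis genes, which process rRNA and assemble subunits in the nucleolus, were lower in 34 of 40 with a median of −0.43 and 0 called. At an unadjusted p under 0.05 (limma) there were 4, beside 3400 of all 16988 genes. DDX21, a nucleolar helicase, gave 6400, 9170 and 3083 normalized counts in the controls and 2977, 2737 and 2940 in the depleted samples, separate by a narrow margin. TAF1D, a subunit of the RNA polymerase I factor SL1, gave 2459, 2408 and 3126 with and 1222, 1609 and 1330 without, a log2 fold change of −0.94 (SE 0.27, adjusted p = 0.0791, limma). Mitochondrial ribosomal protein genes, which encode the separate ribosome of mitochondria, were lower in 56 of 78 with a median of −0.24 and 0 called (6 at an unadjusted p under 0.05, beside the same 3400 of all genes). MRPS27 gave 2019, 2229 and 1216 with and 1169, 666 and 798 without, separate by little, and MRPS33 gave 1142, 1393 and 403 with and 427, 361 and 420 without.

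Of 20 regulators of these genes, 15 were lower and 0 were called. At an unadjusted p under 0.05 (limma) there were 4, beside 3400 of all 16988 genes. MYC gave 1557, 4964 and 1473 normalized counts in the controls and 833, 492 and 425 in the depleted samples, with separate groups and a log2 fold change of −2.01 (SE 0.50, adjusted p = 0.0530, limma). DDIT4, an inhibitor of mTOR signalling that glucocorticoids induce, gave 15471, 7733 and 7577 with and 2095, 3705 and 4740 without, a log2 fold change of −1.54 (SE 0.43, adjusted p = 0.0749, limma). Without control replicate 3 both were called, at −2.31 (adjusted p = 0.0303, limma) and −1.72 (adjusted p = 0.0452, limma). In that fit 6.49% of all genes were called lower. The 8 assembly chaperones had a median of 0.03 and 0 called (0 at an unadjusted p under 0.05), with BCCIP at −0.66 (SE 0.46) and RPS19BP1 at 0.49 (SE 0.42).

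Genes just outside the naming rule were given for comparison. RACK1, a small subunit scaffold protein, gave 28919, 37072 and 14309 normalized counts in the controls and 21313, 13820 and 18386 in the depleted samples, a log2 fold change of −0.50 (SE 0.47). RPL22L1 had a log2 fold change of −0.84 (SE 0.66), RPL7L1 −0.09 (SE 0.33) and RPL26L1 0.35 (SE 0.52). None of these was called.

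Genes with and without the pyrimidine start had close medians. The 43 genes with a C and at least 4 pyrimidines at the RefSeq start site had a median log2 fold change of −0.66, and the 22 matched genes without it had −0.59. Among the sequences shown above, RPL13A and RPS21 with runs of 7 and 12 pyrimidines stood at −1.28 and −1.08, while RPLP1 and RPL39 with runs of 11 and 19 stood at −0.01 and −0.07. RPS29 and RPS27L, whose annotated start sites open on runs of 1 and 0, stood at −0.05 and 0.36. Of the named genes whose sequences are not shown, RPS28 and RPL11 with runs of 0 stood at −1.01 and −0.91. RPS16 with a run of 8 stood at −0.17. The sequences shown are thus examples, and a link of the run with the fold change was not tested.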

How the data were processed

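MCF10A RNA was measured in 6 samples, grouped by their labels as 3 with and 3 without growth factors; the design text speaks of 2 replicates, and the labels were followed. The authors removed rRNA from total RNA with Ribo-Zero Gold, built stranded TruSeq libraries and sequenced 100-base single-end reads. Per the labels and the methods, reads were trimmed (cutadapt 1.6), aligned to hg38 (TopHat2) and assigned to Gencode v22 genes (HTSeq), and the deposited signal is each count over a DESeq2 (1.8.1) size factor, with no scaling by length. RNA of this kind also holds unspliced transcripts, and by default HTSeq leaves out reads placed at several sites, which matters for genes with near-identical pseudogenes.

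Each deposited value was a whole multiple of 1 read of its library (100% of values within 0.1 of a whole read), so the reads per gene were recovered (7472418 to 28672630 per library). Identifiers were given symbols, coordinates and lengths from Gencode v44 on hg38, which matched 18913 of 19198 and left 285 unmatched. The members and the gene lists were chosen with earlier results of these data known, the members by a rule on symbols. The contrast was without minus with growth factors. The main test was limma 3.58.1 (trended, two-sided) in R 4.3.3 on log2(normalized count + 1) over 16988 genes with a mean of at least 10, with Benjamini-Hochberg adjustment over all of them. A gene was called at an adjusted p under 0.05 and at least 2-fold. edgeR 4.0.16 and DESeq2 1.42.0 were run on the recovered reads as alternatives. Errors are SDs over 3 samples or limma standard errors, and floors of 3 reads cover counting error only.

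The length correction subtracted from each library's log2 deviations a straight-line fit on log2 length of the selected transcript and on its GC content, made over genes outside the set with a mean of at least 50; splines with 4 degrees of freedom, and coding length in place of transcript length, were added after the data were seen. Named genes were those called, the 8 lowest and the 8 highest fold changes, the 5 highest per length, those named with L or X and their partners, and RPLP0, RPLP1, RPLP2, RPSA, FAU, RPS6, RPS27A, RPL5 and RPL11. Of the other lists, up to 3 called genes or, where there was none, the 2 with the largest absolute fold changes were named. RPS7, RPL26, RPL37A and the other low genes named for their pseudogenes or for separate groups were chosen after their values were seen. In simulated counts for 16988 genes the limma test recovered 4%, 46%, 90% and 100% of 50 genes each changed 2, 4, 8 and 16-fold, with 4.76% false calls. Recovery asked for the call rule above and the simulated direction, and the changed genes had a mean of at least 50. Start sites and promoters came from RefSeq. Protein sequences were not used here. A few genes are not reported by name here.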

Additional observations from a re-analysis of the deposited data

How the results depend on the processing

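Leaving out each library in turn gave 0 to 34 ribosomal protein genes called, the highest without control replicate 3, and medians of −1.06 to −0.30. It gave 0 to 15 mitochondrial ribosomal protein genes, 0 to 6 ribosome biogenesis genes and 0 to 8 translation factors called, each highest without control replicate 3, and 0 to 2 regulators and 0 to 5 snoRNA host genes, again highest without it. Calls over all genes tested were also highest without control replicate 3, at 2474 of 16988, against 453 to 919 with another library left out. With control replicate 3 left out and the length and GC correction applied together (added after the data were seen), 18 cytosolic and 8 mitochondrial ribosomal protein genes, 8 ribosome biogenesis genes, 10 translation factors and 2 regulators were called. The length and GC correction called 1 cytosolic ribosomal protein gene, 2 translation factors and 1 regulator, and with splines 2, 2 and 1. On coding length it called 7 cytosolic and 3 mitochondrial ribosomal protein genes, 1 ribosome biogenesis gene, 3 translation factors and 2 regulators. DESeq2 called 3 cytosolic ribosomal protein genes, 5 translation factors and 2 regulators. Over all genes, the fit with control replicate 3 left out and the correction called 2385 of 16782. The correction alone called 1290 and its spline form 1302 of 16782, the coding length fit 1237 of 12790 and DESeq2 2112 of 16988. At an adjusted p under 0.1 with no fold cut-off, 1 cytosolic ribosomal protein gene, 1 ribosome biogenesis gene, 3 translation factors and 2 regulators passed. The number over all genes at that rule was not counted, so these counts cannot be set against a background. No filter, and protein-coding genes only, called 1 regulator, and no trend called 0 snoRNA host genes. With coding genes only, or on coding length, most snoRNA host genes drop out and no count is given. Rescaling to the same total, no trend, and leaving out control replicate 2 or any depleted replicate left 0 translation factors called in place of 1. The causes were not tested. Pseudocounts of 0.5 and 10, no filter, a mean of at least 50, TMM and quantile scaling, and protein-coding genes only left 0 cytosolic ribosomal protein genes called. The difference in the share of counts and the median fold change kept their sign under every alternative run. Both moved by less than 1 pooled SD between replicates, but these SDs, 0.904 points and 0.585 on the log2 scale, were nearly as large as the values themselves. Medians from −1.06 to −0.30 thus fell within that limit, which is too wide to show that the size of the difference was stable.

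Same-numbered samples gave no sign of pairing (correlations of same-numbered deviations −0.07, −0.28 and −0.32, against −0.07 to 0.29 for the others). Deviations from a mean of 3 samples are tied together within a group, so these values cannot settle whether the samples were paired. With the replicate block the median stayed at −0.66, 0 cytosolic ribosomal protein genes, 0 translation factors, 0 snoRNA host genes and 1 regulator were called, and 967 genes in place of 1076 over all; with the replicate block and the length and GC correction together the counts were 0 ribosomal protein genes, 0 translation factors and 0 snoRNA host genes and the median −0.63.

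Fold changes close to 0 changed sign under some settings, none of them past the threshold. Rescaling to the same total gave 0.0081 for RPL36AL, 0.040 for RPLP1 and 0.0012 for RPS29, and quantile scaling gave 0.076, 0.072 and 0.072. The length and GC correction, with or without the replicate block, gave 0.078 for RPL36AL, 0.069 for RPL39, 0.0037 for RPLP1 and 0.075 for RPS29, and with splines 0.16 for RPL36AL and 0.036 for RPLP1. Leaving out 1 library at a time gave −0.63 to 0.35 for RPL36AL, −0.36 to 0.22 for RPL39, −0.26 to 0.38 for RPLP1, −0.77 to 0.068 for RPLP2, −0.60 to 0.36 for RPS15, −0.44 to 0.15 for RPS16, −0.76 to 0.071 for RPS20, −0.54 to 0.24 for RPS29, −0.077 to 0.70 for RPS27L and −0.0095 to 1.04 for RPL39L. Without control replicate 3 and with the correction, RPL39 was at 0.58, RPS16 at 0.029, RPS27 at 0.25, RPS29 at 0.052 and RPS27L at −0.15. The order by level per length kept 3 of the 5 leading genes on coding length and 1 on merged exon length. Depth limits the lowest genes, such as RPL39 at 24.3 to 52.7 normalized counts, where 3 reads are worth up to 6.71.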
